A study of Gallus gallus with 14 samples.

Results

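Of the 12844 expressed sequence tag (EST) clones on the chicken array, 5 were taken here for secretion and endoplasmic reticulum (ER) stress in B cells, not as a full count of such genes. They are immunoglobulin J chain (DT40subNB_9D2), SRP54 (DT40subNB_10H8), CKAP4 (pat.pk0060.a8f), XBP1 (pat.pk0048.g12f) and DDIT3 (ChEST686B4). The clones were taken by the identifiers under which a supplementary list of the study names these genes, a list that was itself drawn up on these samples. All 5 were found. J chain, SRP54, CKAP4 and DDIT3 were each printed as 2 spots side by side in 1 block of the slide, and XBP1 as 4 spots in 2 blocks.

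B cells that turn to antibody secretion enlarge their ER, make J chain to join the subunits of polymeric immunoglobulin, and rely on the transcription factor XBP1, whose message is spliced when unfolded protein builds up in the ER. The signal recognition particle, of which SRP54 is the subunit that binds signal peptides, brings nascent secretory proteins to the ER membrane, and CKAP4 is a membrane protein of ER sheets. DDIT3, also known as CHOP, is a transcription factor induced by prolonged ER stress and is known for its part in cell death.

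The study compared 3 chicken lines on 14 arrays with a Cy3 and a Cy5 channel. DKO-R and DKO-S both lack the endogenous clathrin heavy chain genes and express the protein from a Tet-Off transgene that doxycycline (DOX) represses. DKO-R is a derivative of DKO-S, and DT40 is the pre-B-cell line from which both descend and carries no such transgene. The direct arrays are 2 arrays that set DKO-R against DKO-S, both without DOX, in culture A only and in reciprocal dye orientations. The 12 DOX arrays set cells with DOX against the same line without it, in biological replicates A and B of DKO-R, DKO-S and DT40, called cultures here, each in both orientations. The concentration and length of DOX exposure are not given for the array samples, and whether A and B were grown separately is not stated, so the p values measure the spread between these extracts. The direct arrays hold a single pair of extracts and have no such spread of their own. Their p values use the spread of the DOX pairs of DT40 and DKO-R.

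By their labels, the direct arrays and the DOX arrays differ on which of DKO-R and DKO-S held more J chain, and the arrays do not settle which labels hold. If the labels of the direct arrays were exchanged, each direct ratio given here would change its sign. Each result between DKO-R and DKO-S is therefore given for either set of arrays. On 12 of the arrays 55.1% to 72.1% of the clone spots reached a confidence of 0.30, the limit used throughout. The exceptions were 2 arrays of DKO-S, that of culture A with DOX in Cy5 (2.13%) and that of culture B with DOX in Cy3 (22.7%), which are called weak and were left out. A line sat on its own set of DOX arrays, so that line and array set cannot be told apart there. In all strong channels where a spot was kept, J chain was at 4.86 to 124 times the median blank spot of its channel, XBP1 at 19.5 to 82.0, CKAP4 at 7.92 to 89.4, SRP54 at 2.47 to 39.4 and DDIT3 at 2.77 to 18 times. J chain and XBP1, which mark antibody-secreting B cells, had a kept spot on all 12 strong arrays. This holds for 5631 of the 12844 clones and is not particular to them. RNA of whole cultures was hybridised, so that fewer cells expressing a gene and less RNA per cell cannot be told apart.

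J chain differed between DKO-R and DKO-S by more than any other member, and the direction depended on the set of arrays. When Cy3 held DKO-R, the spots of the clone averaged an intensity of 22388 for DKO-R and 1476 for DKO-S. With the dyes exchanged they averaged 11884 for DKO-R in Cy5 and 4351 for DKO-S in Cy3. The channel labelled DKO-R was the brighter in both orientations. The log2(DKO-R/DKO-S), after each array was centred on its median, was 2.44 and 3.63 at the individual spots of the first array and 2.69 and 2.79 at those of the second. Both orientations averaged to 2.89 (standard error 0.22), a 7.40-fold higher level in DKO-R with an adjusted p of 0.000887 (limma). It was the second highest ratio among the 6950 clones tested. J chain was the 1 of the 5 members that passed the threshold of 0.15, where 0.23% of all clones tested did. Since the list the members come from was drawn up on these samples, this is not independent evidence of the direction. The comparison rests on 1 pair of extracts, and its spread is borrowed from the DOX pairs of DT40 and DKO-R.

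**Figure D1:**
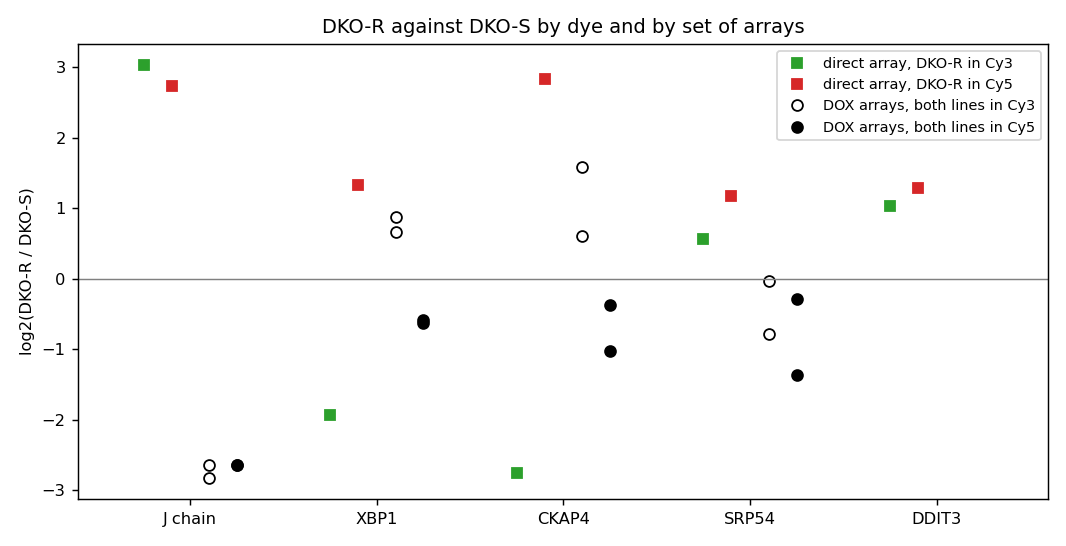
The vertical axis is log2(DKO-R/DKO-S) of each member. Squares are the direct arrays by the dye of DKO-R, and circles compare both lines within a dye across DOX arrays of the same culture (open, Cy3; filled, Cy5). J chain is between 2.74 and 3.04 on the direct arrays and between -2.83 and -2.64 on the DOX arrays, XBP1 and CKAP4 change sign with the dye, and DDIT3 has no pair of DOX channels in the same dye.

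On the DOX arrays it was DKO-R that had less J chain. After loess and Aquantile normalisation and removal of the dye offset of the clone, its log2 intensity without DOX was 10.51 and 10.88 in cultures A and B of DKO-R, 13.20 and 13.12 in those of DKO-S, and 10.73 and 10.59 in those of DT40. With DOX it was 10.61 and 10.48 in DKO-R, 13.44 and 12.93 in DKO-S, and 10.74 and 10.57 in DT40. The 4 DKO-S extracts were above all 8 of the other lines, with no overlap. The share of all clones that separate this way is not given here. The log2 difference of DKO-R from DKO-S was -2.47 without DOX (standard error 0.23, adjusted p = 0.00124, limma over 12 extracts) and -2.64 with DOX (adjusted p = 0.000936). J chain was again the 1 of the 5 members called in each, beside 5.09% of all clones without DOX and 7.43% with DOX. The same direction was seen when both lines were read in 1 dye. DKO-R minus DKO-S was -2.64 in culture A without DOX (both in Cy5), -2.83 in culture A with DOX (Cy3), -2.64 in culture B without DOX (Cy3) and -2.64 in culture B with DOX (Cy5). Since a culture's extracts with and without DOX share arrays, these values are not independent of each other.

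Against the parent line, J chain was 5.66-fold higher in DKO-S than in DT40 without DOX, a log2 difference of 2.50 (standard error 0.23, adjusted p = 0.00109). In DKO-R it differed from DT40 by 0.03 (95% interval -0.48 to 0.54, adjusted p = 0.949). These comparisons called 21.7% and 22.7% of all clones tested, against 1 and 0 of the 5 members. If it were the labels of DKO-R and DKO-S on the DOX arrays that were exchanged, the 5.66-fold would belong to DKO-R and the difference of 0.03 to DKO-S. As labelled, J chain in DKO-S stood above DKO-R and DT40, which did not differ beyond their spread.

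**Figure D2:**
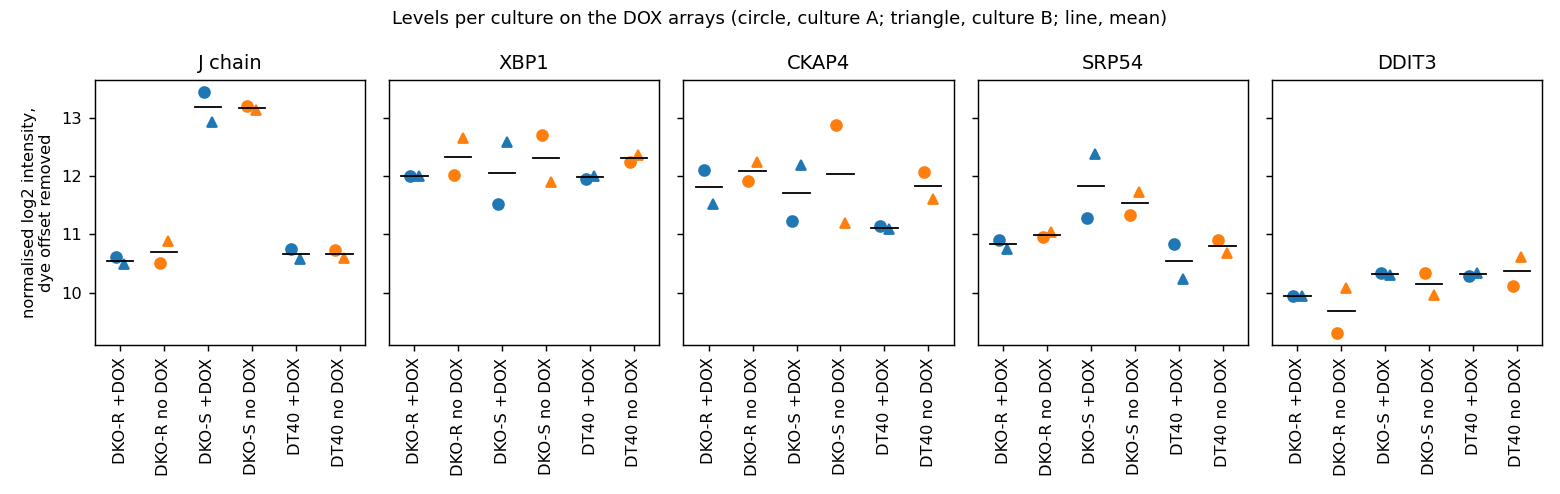
The vertical axis is the normalised log2 intensity of each member per extract on the DOX arrays, for DKO-R, DKO-S and DT40 with and without DOX. Circles are culture A, triangles culture B and lines their mean. J chain lies at 12.93 to 13.44 in DKO-S and at 10.48 to 10.88 in the other lines. Intensities of different clones are not comparable with each other.

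The extracts of culture A without DOX were hybridised on both sets of arrays and can be followed from one to the other. Normalised together with all 12 strong arrays, J chain in the extract labelled DKO-R A was at 13.96 in Cy3 and 14.08 in Cy5 of the direct arrays, against 10.36 in Cy3 and 10.62 in Cy5 of the DOX arrays. In the extract labelled DKO-S A it was at 11.43 in Cy3 and 10.89 in Cy5 of the direct arrays, and at 13.28 in Cy5 of the DOX arrays. The level went with the set of arrays in both extracts, in opposite directions. DDIT3 differed between the sets of arrays in the extract labelled DKO-R and by much less in the one labelled DKO-S. The extract labelled DKO-R A had 11.22 in Cy3 and 11.68 in Cy5 of the direct arrays and 9.15 in Cy3 of the DOX arrays, whereas that labelled DKO-S A had 10.32 and 10.23 on the direct arrays and 10.44 in Cy5 of the DOX arrays.

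**Figure D3:**
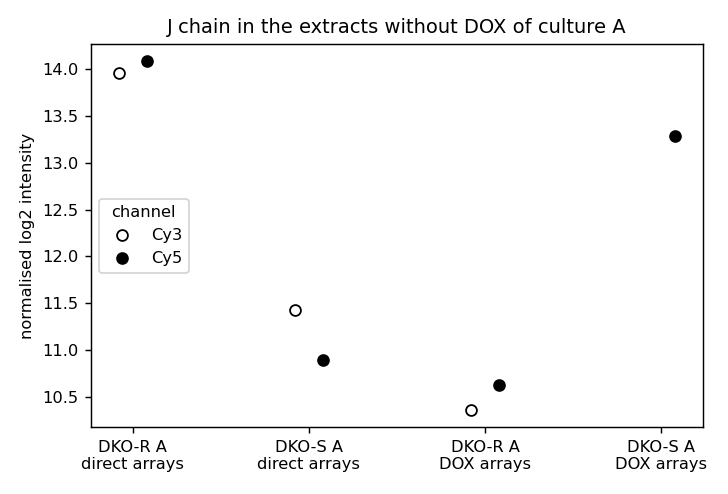
The vertical axis is the normalised log2 intensity of J chain in the culture A extracts without DOX. Open circles are Cy3 and filled circles Cy5. The extract labelled DKO-R is at 13.96 and 14.08 on the direct arrays and at 10.36 and 10.62 on the DOX arrays, and the one labelled DKO-S at 11.43 and 10.89 on the direct arrays and at 13.28 on the DOX arrays.

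No response of J chain to DOX passed the threshold in any line. The log2(DOX/no DOX) in DKO-R was -0.07 and 0.24 on the arrays of culture A with DOX in Cy3 and in Cy5, and -0.76 and -0.12 on those of culture B. The mean was -0.17 (95% interval -0.52 to 0.17, adjusted p = 0.739). In DKO-S it was -0.02 on the strong array of culture A and 0.09 on that of culture B, with a mean difference between the extracts of 0.02 (95% interval -0.48 to 0.53). In DT40 the arrays gave -0.04 and 0.10 in culture A and 0.08 and -0.13 in culture B, with a mean of 0.00 (95% interval -0.34 to 0.35). On the weak array of DKO-S culture B, J chain had a log2(DOX/no DOX) of 1.26. Its DOX channel read 1150 there, beside a median clone spot of 87.5 and a median blank spot of 82.6 in that channel. The channel without DOX read 3995, so that J chain was higher with DOX only after the array was centred on its median.

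The clones whose profile was most like that of J chain over the 24 channels of the strong arrays were DT40subNB_4H8 (Pearson's r = 0.95), DT40subNB_8H3 (r = 0.93) and ChEST365A10 (r = 0.90), among 5631 clones measured throughout. These correlations share the arrays and their normalisation, both sets of arrays entered them, and the clones carry no gene name in the sources used here. The 3 clones were higher in DKO-R on the direct arrays in both orientations, at a mean log2(DKO-R/DKO-S) of 3.20, 2.22 and 1.17. On the DOX arrays without DOX they were at -3.13, -2.84 and -0.90. Since the clones were chosen for their likeness to J chain over these channels, the opposite signs follow from the choice.

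SRP54 had the same sign as J chain in either set of arrays but did not pass the threshold. Only 1 of its 2 spots reached the confidence on each direct array. The log2(DKO-R/DKO-S) was 0.56 with DKO-R in Cy3, from intensities of 1727 in DKO-R and 589 in DKO-S, and 1.18 with DKO-R in Cy5, from 3307 in DKO-R and 3555 in DKO-S. The mean was 0.87 (standard error 0.20 with 1 residual degree of freedom, adjusted p = 0.245). Without either culture of DT40 the mean was the same and its standard error was larger, at 0.23. The call of SRP54 changed in these fits, which leave a lone culture of DT40, so their p values are not given.

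On the DOX arrays without DOX, SRP54 was at 10.95 and 11.04 in cultures A and B of DKO-R, 11.34 and 11.73 in those of DKO-S, and 10.90 and 10.69 in those of DT40. With DOX it was at 10.91 and 10.75 in DKO-R, 11.27 and 12.38 in DKO-S, and 10.84 and 10.23 in DT40. All 4 DKO-S extracts lay above the other 8, and as for J chain the share of all clones that do so is not given here. DKO-R minus DKO-S was -0.54 without DOX (95% interval -1.32 to 0.24, adjusted p = 0.486) and -1.0 with DOX (95% interval -1.78 to -0.22, adjusted p = 0.185). Within a dye it ranged from -1.36 to -0.03 and was below 0 in all 4 comparisons. The difference with DOX was -1.55 without DKO-S culture A and -0.44 without DKO-S culture B. DKO-S minus DT40 was 0.74 (standard error 0.35, adjusted p = 0.213). It was 0.94 without DKO-S culture A and 0.55 without DKO-S culture B. Leaving out a culture changed the call of the difference with DOX and that of DKO-S minus DT40. Those fits keep a lone culture of a line, so their p values are not given. With culture as a replicate block the adjusted p was 0.144 for DKO-R against DKO-S without DOX, 0.0404 with DOX and 0.0526 for DKO-S against DT40, at unchanged differences. In that fit the spread between cultures of a line no longer counts as error.

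The log2(DOX/no DOX) of SRP54 was -0.18 in DKO-R (95% interval -0.51 to 0.14). The arrays of culture A gave 0.26 and -0.37 and those of culture B -0.59 and -0.03, with the Cy3 orientation first. In DKO-S the strong arrays gave 0.01 in culture A and 0.63 in culture B, and the extracts a mean of 0.29 (95% interval -0.49 to 1.07). In DT40 only culture A was measured in both orientations, at -0.03 and -0.02.

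CKAP4 followed the dye and not the line. When Cy3 held DKO-R, its spots read 1679 and 1934 in DKO-R and 5729 and 6485 in DKO-S. With DKO-R in Cy5 they read 11467 and 14273 in DKO-R and 4285 and 4478 in DKO-S. The channel in Cy5 was the brighter on both, and the log2(DKO-R/DKO-S) was -2.75 when DKO-R was in Cy3 and 2.83 when it was in Cy5. The mean was 0.04 (95% interval -0.62 to 0.70, adjusted p = 0.995). Where both channels held the same line, on the 8 arrays of DKO-R and DT40 with and without DOX, CKAP4 was brighter in Cy5 on all 8, and log2(Cy5/Cy3) averaged 1.40 ± 0.35 (SD over 4 pairs of arrays). That offset ranked 28th of the 6484 clones measured on all 8.

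With that offset removed, CKAP4 without DOX was at 11.92 and 12.24 in cultures A and B of DKO-R, 12.88 and 11.19 in those of DKO-S, and 12.06 and 11.61 in those of DT40. The cultures of DKO-S were 1.69 apart. Each rests on 1 strong array, with the extract in Cy5 for culture A and in Cy3 for culture B, and log2(Cy5/Cy3) on those arrays was 3.07 and 2.41. The part of the dye in that gap was not tested. DKO-R minus DKO-S was 0.05 without DOX (95% interval -1.08 to 1.17) and 0.11 with DOX. DKO-S minus DT40 was 0.20 (adjusted p = 0.839). It was -0.64 without DKO-S culture A and 1.05 without DKO-S culture B.

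Among the DOX comparisons of the members, CKAP4 had the lowest unadjusted p, in the line with no Tet-Off clathrin. In DT40 the log2(DOX/no DOX) of the arrays was -2.65 with DOX in Cy3 and 0.86 with DOX in Cy5 in culture A, and -1.59 and 0.51 in culture B. Averaged over orientations the mean was -0.72 (standard error 0.21, unadjusted p = 0.00679, adjusted p = 0.614), which did not pass. In DKO-R the arrays gave -1.42 and 1.86 in culture A and -1.86 and 0.45 in culture B, with a mean of -0.24 (95% interval -0.71 to 0.22). In DKO-S the strong arrays gave -3.07 in culture A, with DOX in Cy3, and 2.41 in culture B, with DOX in Cy5. The extracts of DKO-S had a mean of -0.33 (95% interval -1.46 to 0.80), which was 0.99 without culture A and -1.65 without culture B. Each culture has a single orientation there, and the part of the dye in these values was not tested. The response of DKO-R minus that of DT40 was 0.47 (95% interval -0.18 to 1.13, adjusted p = 0.820).

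XBP1 gave different readings at its 2 printed sites. At block 8 of the direct arrays, log2(Cy5/Cy3) was 3.00 when Cy3 held DKO-R and 3.07 when Cy5 did, so that Cy5 was the brighter whichever line it held. At block 37 it was 0.86 and -0.41, and turned to log2(DKO-R/DKO-S) this was -0.86 and -0.41, lower in DKO-R in both orientations. The spots of block 37 read 7587 and 5928 in DKO-R and 6553 and 5745 in DKO-S with DKO-R in Cy3, and 2177 and 2332 in DKO-R and 7097 and 7464 in DKO-S with DKO-R in Cy5. Over the pairs of DKO-R and DT40 arrays the dye offset was 2.12 ± 0.33 at block 8 and 0.23 ± 0.12 at block 37 (SD, n = 4 pairs). The gap of 1.89 between these sites was the second widest among 285 clones printed in more than 1 block, whose median gap was 0.18.

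**Figure D4:**
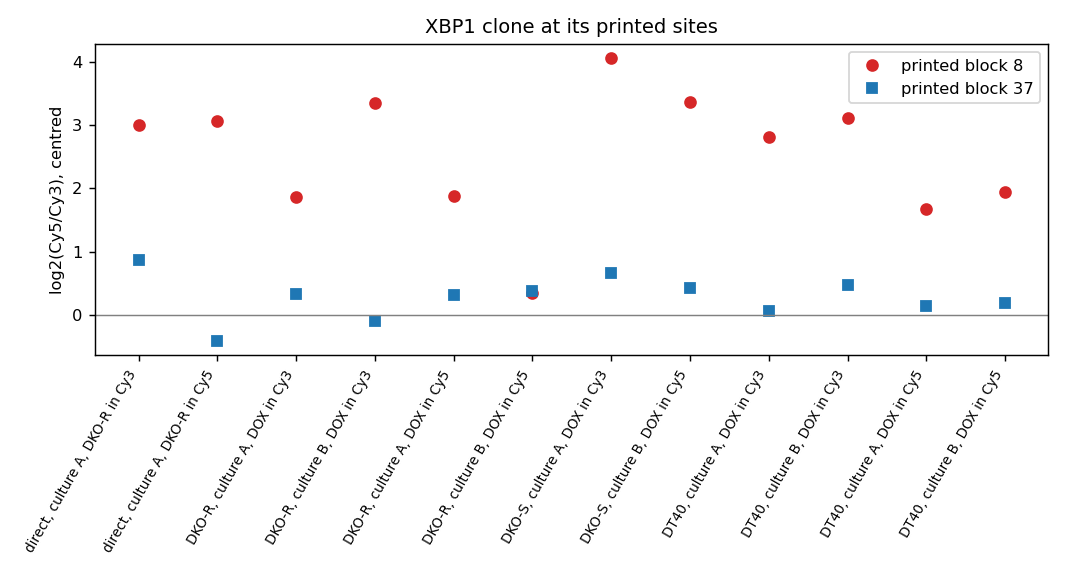
The vertical axis is the centred log2(Cy5/Cy3) of the XBP1 clone on each of the 12 strong arrays, as the mean of the spots in block 8 (circles) and in block 37 (squares). Block 8 is at 1.67 or more on all arrays but 1, and at 0.34 on that of DKO-R culture B with DOX in Cy5, while block 37 lies between -0.41 and 0.86.

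Averaged over its 4 spots, the log2(DKO-R/DKO-S) of XBP1 was -1.93 when Cy3 held DKO-R and 1.33 when Cy5 did, and its mean was -0.30 (95% interval -0.83 to 0.23, adjusted p = 0.754). Taken by site, a split chosen after the values were seen, the mean was 0.04 at block 8 (standard error 0.41) and -0.64 at block 37 (standard error 0.19, unadjusted p = 0.00974, adjusted p = 0.376). Neither passed. On the DOX arrays, with both lines read in 1 dye, block 37 read higher for DKO-R, by 0.10 and 0.41 in culture A and 0.24 and 0.22 in culture B, without and with DOX in that order. Block 8 gave -1.26 and -1.48 in Cy5 and 0.92 and 1.5 in Cy3. The fits of block 37 with the dye offset removed gave -0.08 without DOX and 0.15 with DOX (standard error 0.20 each).

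Over all spots XBP1 without DOX was at 12.01 and 12.65 in cultures A and B of DKO-R, 12.70 and 11.90 in those of DKO-S, and 12.25 and 12.36 in those of DT40. The lines overlapped. DKO-R minus DKO-S was 0.03 without DOX (95% interval -0.81 to 0.86) and -0.05 with DOX. DKO-R minus DT40 was 0.03 and DKO-S minus DT40 was 0.00. The log2(DOX/no DOX) was -0.32 in DKO-R (95% interval -0.69 to 0.06, adjusted p = 0.584), -0.25 in DKO-S (95% interval -1.08 to 0.59) and -0.31 in DT40 (95% interval -0.69 to 0.06, adjusted p = 0.857). The value in DKO-S was 0.68 without its culture A and -1.18 without its culture B. Each of these cultures rests on 1 strong array, with DOX in Cy3 for culture A and in Cy5 for culture B. On these arrays the log2(Cy5/Cy3) of XBP1 was 2.36 and 1.89, beside a mean of 1.17 over the pairs of DKO-R and DT40 arrays. The part of the dye in the DKO-S values was not tested. By site the change with DOX was -0.75 in DKO-R and -0.58 in DT40 at block 8, against 0.12 and -0.05 at block 37.

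DDIT3 was higher in DKO-R on both direct arrays and fell short of the threshold. With DKO-R in Cy3 its spots averaged 3209 in DKO-R and 794 in DKO-S, and with DKO-R in Cy5 they averaged 2021 in DKO-R and 2008 in DKO-S, on an array where Cy3 was the brighter channel for most clones. The log2(DKO-R/DKO-S) was 1.03 and 1.29, with all 4 spot values between 1.00 and 1.40. The mean of 1.16 was a 2.23-fold higher level (standard error 0.22 with 1 residual degree of freedom, adjusted p = 0.179) and ranked 12th from the top. With each printed block centred on its median the adjusted p was 0.0948, and with loess it was 0.145. The call was unchanged under 8 of 12 alternatives. Among these the adjusted p was 0.326 with no confidence filter, 0.256 with both DKO-S pairs in the fit and 0.206 with the deposited log2 table.

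DDIT3 was dim on the arrays of DKO-R with and without DOX, where 2 of the 4 had no spot of sufficient confidence. The DOX response of DKO-R was therefore not tested in the ratio fit, which needs both orientations of a culture, and the lines could not be compared within a dye. The levels in DKO-R were 9.94 and 9.93 with DOX in cultures A and B. Without DOX it was at 9.31 and 10.07 in cultures A and B of DKO-R, 10.33 and 9.96 in those of DKO-S, and 10.12 and 10.61 in those of DT40. DKO-R minus DKO-S was -0.45 without DOX (95% interval -1.07 to 0.17, adjusted p = 0.466) and -0.38 with DOX (adjusted p = 0.527). DKO-R minus DT40 was -0.68 (standard error 0.28, adjusted p = 0.154), just outside the threshold. This value was -1.06 without culture B of DKO-R and -0.29 without culture A. The level of DKO-R culture A without DOX rests on 1 kept spot of 1 array. The adjusted p of DKO-R minus DT40 was 0.0822 with no confidence filter and 0.0824 with the replicate block. The log2(DOX/no DOX) of DDIT3 was -0.05 in DT40 (95% interval -0.41 to 0.31), from arrays at 0.18 and 0.17 in culture A and -0.34 and -0.22 in culture B, and 0.18 in DKO-S (95% interval -0.44 to 0.79).

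Across the 5 members, 0 were called in any response to DOX, nor in the difference between the responses of DKO-R and DT40, where 0% of the clones tested passed the threshold of 0.05 in each. At an unadjusted p under 0.05 there were 786 clones of 8396 in DKO-R, 561 of 8574 in DT40, 471 of 7896 in the difference and 111 of 9667 in DKO-S. Of the members, these included CKAP4 in DT40 and no other. The 4 members tested in DKO-R, all but DDIT3, had log2(DOX/no DOX) between -0.32 and -0.17, none of which passed.

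On the direct arrays CKAP4 and the mean of all XBP1 spots changed sign with the dye, while J chain, SRP54, DDIT3 and block 37 of XBP1 kept theirs. Of the 7238 clones measured on both direct arrays, 3239 (44.7%) had the same sign on both. On both arrays 165 clones were brighter in Cy5 by 1 or more on the log2 scale. XBP1 and CKAP4 come from the pat set of clones, in which 40 of 787 clones measured on all 8 DKO-R and DT40 arrays (5.08%) were brighter in Cy5 by more than 1 on the log2 scale. J chain and SRP54 come from the DT40subNB set, where 1 of 1062 was (0.0942%), and DDIT3 from the ChEST set, where 3 of 3953 were (0.0759%). J chain had an offset of 0.11 ± 0.18 (SD, n = 4 pairs). The clones most like CKAP4 over the 24 channels were pat.pk0051.a3, complement C4 and pat.pk0051.g6 (r = 0.86, 0.84 and 0.83). Those most like XBP1 were pgn1c.pk001.i8, pgn1c.pk002.g22 and the NK-lysin clone (r = 0.85, 0.84 and 0.83). These clones were chosen over the same arrays and are no further evidence of the dye offset. SRP54 and DDIT3 were not measured on all 12 arrays and have no such list.

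The same supplementary list names further clones for membrane traffic or as secreted proteins. Among the membrane traffic genes (AP1B1, CHMP7, CD63 and the a3 subunit of the vacuolar ATPase), 3 of 4 were measured on both direct arrays and 3 changed sign with the dye. All 5 secreted proteins (avidin, complement C4, the chemokine CCL17, NK-lysin and Gal-1 alpha) changed sign as well. CCL17 was at -2.31 when DKO-R was in Cy3 and 2.43 when it was in Cy5. Of all clones measured on both direct arrays, 44.7% had the same sign on both, so changing sign by itself is not particular to these lists. The size of the change was less common. Every clone of the membrane traffic and secreted lists that was measured on both was brighter in Cy5 by 1 or more on the log2 scale on both arrays. Of all 7238 clones measured on both, 165 were. The cause was not tested. None of either list passed in the direct comparison, where the medians were 0.12 and -0.04 beside 0.00 for all clones, or between DKO-R and DKO-S on the DOX arrays. Against DT40, AP1B1, a subunit of a clathrin adaptor, was called as higher in DKO-R (0.80, adjusted p = 0.117) and in DKO-S (0.84, adjusted p = 0.103), and CCL17 in DKO-R (0.85, adjusted p = 0.128), while CCL17 in DKO-S was at 0.80 (adjusted p = 0.154). Of the membrane traffic and secreted genes tested, 1 of 3 and 1 of 5 were thus called in DKO-R, and 1 of 3 and 0 of 5 in DKO-S, beside 22.7% and 21.7% of all clones. The AP1B1 clone was printed in more than 1 block, with a gap of 1.48 in dye offset between sites, beside a median gap of 0.18. Its calls rest on the average over these sites and were not taken by site. A further group of 7 clones from the supplementary list was CHTOP, SNAPC5, THUMPD2, NFKBIE, NUP133, CDC73 and TSC22D4. Within this group NUP133 alone kept its sign on the direct arrays, at 1.04 and 1.06 (adjusted p = 0.185). On the DOX arrays NUP133 in DKO-R minus DKO-S was -0.77 without DOX (adjusted p = 0.218) and -0.86 with DOX (adjusted p = 0.152).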

How the data were processed

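The authors deposited the intensity of each spot in both channels, with a confidence per spot as a fraction, as BlueFuse for Microarrays 1.1 (build 2765) gave them, without normalisation. They also deposited a table of log2(Cy5/Cy3) values, used here as an alternative only. The methods describe a global normalisation of each slide, and whether the table holds it is not stated. The dye of each channel was taken from the labels. Spots of confidence 0.30 or more were kept.

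For the ratios, each array was centred on its median log2(Cy5/Cy3), spots of a clone were averaged, and signs were set to give DKO-R/DKO-S or DOX/no DOX before the mean of the reciprocal arrays was taken. With lmFit and eBayes of limma 3.58.1 (R 4.3.3), a mean per comparison was fitted to 5 pairs of extracts, the direct pair and those of DT40 and DKO-R, with 2 residual degrees of freedom, of which a clone needed 1. For levels, intensities of the 10 strong DOX arrays were normalised by loess (span 0.3) and Aquantile, the dye offset of each clone on the DT40 and DKO-R arrays was removed, and limma fitted 6 groups to 12 extracts. The number of arrays limits the precision. Benjamini-Hochberg adjusted p values over all clones passed under 0.15 between lines and under 0.05 for DOX. Intervals are 95% from the moderated fit. The fits were tested on simulated data. Alternatives were other normalisations, confidence filters and thresholds, the deposited log2 table, other sets of arrays, a culture block and leaving out each culture.

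The members, and the lists of other genes, were chosen with earlier results of these data known. The named genes are the members whatever their values, the 3 clones most like each, and those lists. Likeness was Pearson's r of the normalised log2 intensity, with each dye centred on its own mean. Of the 5 gene symbols 4 were found in the RefSeq table given. Pairing by culture was checked over clones: the deviation of a culture with DOX correlated with its deviation without DOX at r = 0.66 in DT40, 0.57 in DKO-S and 0.72 in DKO-R, where both extracts of a culture shared their arrays. The fits reported have no block. Sequences of the clones and promoters were not used here.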

Additional observations from a re-analysis of the deposited data

Results flagged for a closer look

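J chain moved one way on every direct array and the other way in every comparison on the DOX arrays. Its mean log2(DKO-R/DKO-S) was 2.89 on the direct arrays (2.74 and 3.04) and -2.69 within a dye over 4 comparisons on the DOX arrays (-2.83 to -2.64). SRP54 did likewise, with 0.87 on the direct arrays (0.56 and 1.18) and -0.61 on the DOX arrays (-1.36 to -0.03). XBP1 at printed block 37 ran the opposite way round, with -0.64 on the direct arrays (-0.86 and -0.41) and 0.24 on the DOX arrays (0.10 to 0.41), although the fit with the dye offset removed gave -0.08 without DOX and 0.15 with DOX (standard error 0.20 each). The difference between the sets of arrays was not tested for any of them, and the comparisons with and without DOX share arrays.

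The weak DKO-S arrays, which were used in alternatives only, were read against their blank spots. On that of culture A all 5 were above the median blank spot in the channel without DOX and 0 in the channel with DOX. On that of culture B all 5 were above it in either channel, DDIT3 at 97.8 with DOX beside a median blank spot of 82.6. No member had a spot of sufficient confidence on the array of culture A, nor had DDIT3 on that of culture B.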

How the results depend on the processing

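J chain kept its direction and its call in the direct comparison under all 15 alternatives (2.72 to 3.17), and between DKO-R and DKO-S on the DOX arrays without DOX under 13 of 14, the exception being the direct arrays included (-0.92, adjusted p = 0.750), where opposed values are averaged. Leaving out a culture gave -2.65 to -2.28 in the second. In the first it left out DOX pairs only, so that the mean of 2.89 could not move and only its error did. Values of the main fits within 1 standard error of 0 and not called were taken to have no direction. Of the others, XBP1 in the direct comparison turned to 1.33 with DKO-R in Cy5 alone and to 0.037 at block 8. CKAP4, whose main value of 0.04 (standard error 0.29) had no direction by this rule, was at -2.75 with DKO-R in Cy3 alone. Without culture B or culture A of DKO-R, in that order, the DOX response of DKO-R was 0.088 or -0.44 for J chain, 0.00046 or -0.63 for XBP1 and 0.22 or -0.71 for CKAP4. For XBP1 at block 37 it was 0.12 and for SRP54 with no confidence filter 0.043. With the direct arrays included, DDIT3 in DKO-R was 0.28 above DKO-S and 0.042 above DT40. Either direct array alone called all 5 members. XBP1 and CKAP4 were called in opposite directions on the 2 arrays (XBP1 -1.93 with DKO-R in Cy3, CKAP4 2.83 with DKO-R in Cy5). Those fits called 1717 and 1729 of all clones, against 16 in the main fit, and within 1 array line and dye cannot be told apart. SRP54 in DKO-S against DT40 passed with the weak arrays (0.76, adjusted p = 0.128). Taking each clone by printed block was chosen after the data were seen.

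The counts of clones called moved more. In the direct comparison, 16 became 26 with loess, 54 with printed blocks centred, 104 with the deposited log2 table, 9 with both DKO-S pairs, 5 at a threshold of 0.05, and 1717 and 1729 with DKO-R in Cy3 or in Cy5 alone. Without each culture it was 15 to 115, the highest without either culture of DT40. In the DOX responses 0 became 2 in DT40 and 4 in the difference with the deposited table, and 1 in DKO-S with the weak arrays. Without each culture these counts were 0 to 51 in DKO-R, 0 to 11 in DT40 and 0 to 7 in the difference, above 0 only without a culture of DT40, and 0 in DKO-S. Between DKO-R and DKO-S without DOX, 486 became 10 with the direct arrays, 305 with channels centred on the median and 111 at 0.05. With DOX, 710 became 177 at 0.05. Against DT40, 2275 for DKO-R and 2042 for DKO-S became 1045 and 878 at 0.05. Without each culture the counts were 83 to 1298, 175 to 1190, 553 to 3116 and 454 to 2386, lowest without DKO-R culture B between DKO-R and DKO-S and without DT40 culture A or B against DT40, where the lone culture left is assumed to vary like the rest. With the replicate block they were 3345, 3519, 5058 and 4658, because the block takes the spread between cultures out of the error. The block changed no call of a member other than those given for SRP54 and DDIT3. Leaving out a culture changed calls between lines for SRP54, CKAP4 and DDIT3. Each such fit keeps a lone culture of a line and is read for the size of the difference only. The cause of the other moves was not tested.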
